A study of Mus musculus with 12 samples.

Results

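The genes described here are the matrix metalloproteases (Mmp), the ADAMTS proteases (Adamts), the protease-free ADAMTS-like proteins (Adamtsl) and the tissue inhibitors of metalloproteases (Timp). They were taken by gene symbol: Mmp, Adamts or Adamtsl followed by a number, and Timp1 to Timp4. The rule found 48 genes of the 18295 with a symbol on the array, measured by 95 of 41174 gene probes: 21 Mmp genes, 18 Adamts genes, 5 Adamtsl genes and 4 Timp genes. Mmp1b, Mmp27 and Adamts17 were not analysed here. In all, 21 genes had 1 probe and 27 had several, up to 5. Each gene is represented by its brightest probe unless another is named.

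RNA came from mature adipocytes of 3T3-L1, an established mouse preadipocyte line that can be turned into lipid-laden fat cells. The cells had been electroporated with oligonucleotides for RNA interference against TIP60 (TIP60-si), against USP7 (USP7-si) or with a control (control-si) and were lysed 2 days later. There were 4 arrays per group, and each array also carried the reference in the opposite dye, which was RNA of the same line before differentiation. All 3 groups share the differentiation and the electroporation, and the groups are 1 cell line in culture. The labels do not say whether replicates were separate cultures, so the spread behind each p-value may be technical. A value is a log2 ratio of adipocytes over the reference, corrected for the fitted dye term, so that 0 means the level of undifferentiated cells and 1 means 2-fold above it.

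TIP60, whose gene symbol is Kat5, is a histone acetyltransferase, and USP7 is a deubiquitinase. Metalloproteases of these families hold a zinc ion in the active site and are made as inactive precursors. Mmp enzymes cut collagens, laminins and other matrix proteins, Adamts enzymes mainly trim procollagens and cut proteoglycans, and Timp proteins block the active site of both families with different preferences. A fat cell must remodel the fibrous matrix around it as it rounds up and fills with lipid, and in mice Mmp14 is needed for normal growth of white fat.

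The targeted genes were low where the labels said so. Kat5 stood at -1.18 ± 0.06 in TIP60-si, at -0.22 ± 0.08 in USP7-si and at -0.18 ± 0.14 in control-si (SD, n = 4 each). Usp7 stood at -0.20 ± 0.09 in TIP60-si, at -1.76 ± 0.25 in USP7-si and at -0.11 ± 0.12 in control-si, while a second, dimmer Usp7 probe differed between USP7-si and control-si by 0.03. The 8 adipocyte markers lay above 1 in every group, with medians of 3.83 in TIP60-si, 3.63 in USP7-si and 3.77 in control-si. None of the 8 was called in any comparison by its brightest probe. Of all their 14 probes, 1 was called in TIP60-si against control-si, 0 in USP7-si against control-si and 1 between the knockdowns. The shares over all gene probes were 3.78%, 0.085% and 7.38%. Fabp4 and Lpl had median net sample signals of 61622.3 and 57700.2, near the saturation level of 65000. USP7-si replicate 4 stood apart: its median absolute log2 ratio over all gene probes was 0.0554, against 0.109 to 0.148 on the other 11 arrays. Between 85.2% and 98.3% of gene probes stood above background per array, and 42 of the 48 genes did so on all 12 arrays. In TIP60-si the median raw sample signal was 140 and 141 on replicates 1 and 2. It was 191 and 196 on replicates 3 and 4. Either pair held both dye orientations, so the dye term does not take up a difference between the pairs. Mmp2, Mmp11, Adamts5, Adamts15 and Mmp3, given below, also separated these pairs. The source of the split was not tested. The number of arrays limits the precision.

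Few of these genes lay far from the level of undifferentiated cells, and the 4 highest were the same in all 3 groups. The stromelysin Mmp3, which cuts proteoglycans, fibronectin and laminin and activates other Mmp precursors, was the highest. It stood at 7.41-fold over the reference in TIP60-si, 5.45-fold in USP7-si and 5.07-fold in control-si. Behind it came Adamts15, a proteoglycanase, Mmp19, a secreted enzyme active on basement membrane, and Mmp13, the main interstitial collagenase of rodents. These ratios have no test here, because the reference is 1 RNA and no sample of a group. Of the 95 probes, 4 lay above 1 in each group, where 2.24% of all gene probes did in TIP60-si, 1.66% in USP7-si and 1.99% in control-si. At the lower end, 4 probes lay below -1 in TIP60-si (1.52% of all gene probes), 1 in USP7-si (0.998%) and 3 in control-si (1.23%). By brightest probe these were Adamts10 in every group, Adamts6 in TIP60-si and control-si, and Mmp2 in TIP60-si. Mmp2 lay near the limit in each group, at -1.09 in TIP60-si, -0.93 in USP7-si and -0.99 in control-si. None of these genes was called in any comparison, so the counts show no difference between the groups. Among the 48 genes, 22 (45.8%) had all 4 control-si arrays below 0, and 16 (33.3%) had all 4 above 0. Of the 95 probes, 39 had all 4 below 0, against 27.9% of all gene probes. All 4 were above 0 for 24 of the 95, against 28.7% of all gene probes.

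Adamts15 read 1.02, 1.25, 1.68 and 1.70 in TIP60-si, 1.45, 1.67, 1.48 and 1.05 in USP7-si, and 1.54, 1.45, 1.25 and 1.29 in control-si. The groups overlapped. Mmp19 read 1.47, 1.31, 1.63 and 1.14 in TIP60-si, 1.18, 1.55, 1.08 and 1.11 in USP7-si, and 1.05, 1.40, 1.53 and 1.43 in control-si. Its groups overlapped too, and in each of them every array was above 1. Mmp13 read 1.07, 1.03, 1.33 and 1.28 in TIP60-si, 0.93, 1.31, 1.33 and 1.03 in USP7-si, and 1.20, 1.10, 0.97 and 1.08 in control-si. Arrays of neighbours in this order, Adamts15 with Mmp19 and Mmp19 with Mmp13, overlapped in every group. A step below came Adamts18, at 0.31 ± 0.23 in TIP60-si, 0.49 ± 0.16 in USP7-si and 0.42 ± 0.08 in control-si (SD, n = 4 each). Its arrays read 0.37, 0.62, 0.10 and 0.16 in TIP60-si, 0.59, 0.24, 0.57 and 0.55 in USP7-si, and 0.43, 0.54, 0.39 and 0.34 in control-si.

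Below the reference stood Adamts10, Mmp2, Mmp11, Mmp23 and Adamts5, the lowest in control-si of the genes above background on all arrays. Mmp2, a gelatinase that cuts denatured collagen and collagen of basement membranes, read -1.41, -1.39, -1.02 and -0.54 in TIP60-si, -1.02, -0.72, -0.91 and -1.09 in USP7-si, and -0.81, -1.20, -0.85 and -1.08 in control-si. It was lower in adipocytes than in the reference on all 12 arrays. Its spread was widest in TIP60-si, where replicates 1 and 2 lay below replicates 3 and 4. Mmp11, a stromelysin by name that cuts few matrix proteins, read -1.10, -0.95, -0.49 and -0.34 in TIP60-si, -0.83, -0.71, -0.66 and -0.72 in USP7-si, and -0.74, -0.92, -0.78 and -0.95 in control-si. Adamts5, an aggrecanase, read -1.28, -1.17, -0.67 and -0.56 in TIP60-si, -0.85, -0.67, -0.78 and -1.01 in USP7-si, and -0.57, -0.80, -0.99 and -0.94 in control-si. Mmp11 and Adamts5 also lay below the reference on every array, and their groups overlapped. In TIP60-si, replicates 1 and 2 of both genes lay below replicates 3 and 4.

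Adamts10, which is tied to fibrillin microfibrils, was the lowest gene in control-si. Its arrays read -1.01, -1.27, -1.22 and -0.97 in TIP60-si, -1.18, -1.11, -1.20 and -0.77 in USP7-si, and -0.98, -1.48, -1.13 and -1.11 in control-si. The 2 other Adamts10 probes were less far below the reference, up to -0.11 in control-si. Adamts6, named here after its values were seen, averaged -1.37 ± 0.09 in TIP60-si, -0.94 ± 0.50 in USP7-si and -1.14 ± 0.15 in control-si (SD, n = 4 each), and was above background on 10 of 12 arrays. Of its USP7-si arrays, replicate 4 read -0.21 and the other 3 read -1.13, -1.32 and -1.10.

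Within 0.25 of 0 lay 27 of the 48 genes in TIP60-si, 33 in USP7-si and 29 in control-si. Outside that limit in control-si, besides the genes above, lay Timp2 at -0.58, Timp3 at -0.57, Adamts2 at -0.46, Adamtsl5 at -0.39, Adamts1 at -0.38, Adamts20 at -0.29, Adamts4 at -0.26 and Adamts9 at 0.39. The 6 membrane-type Mmp genes had a median of 0.05 in TIP60-si, 0.04 in USP7-si and 0.04 in control-si. The 5 Adamtsl genes had medians of -0.06, -0.03 and -0.07 in TIP60-si, USP7-si and control-si. The 4 Timp genes lay lower, with medians of -0.23 in TIP60-si, -0.28 in USP7-si and -0.30 in control-si. The ratios of all 48 genes in the plot ordered by control-si show this shape: a long middle near 0, 4 genes far above it and a graded tail below.

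**Figure D1:**
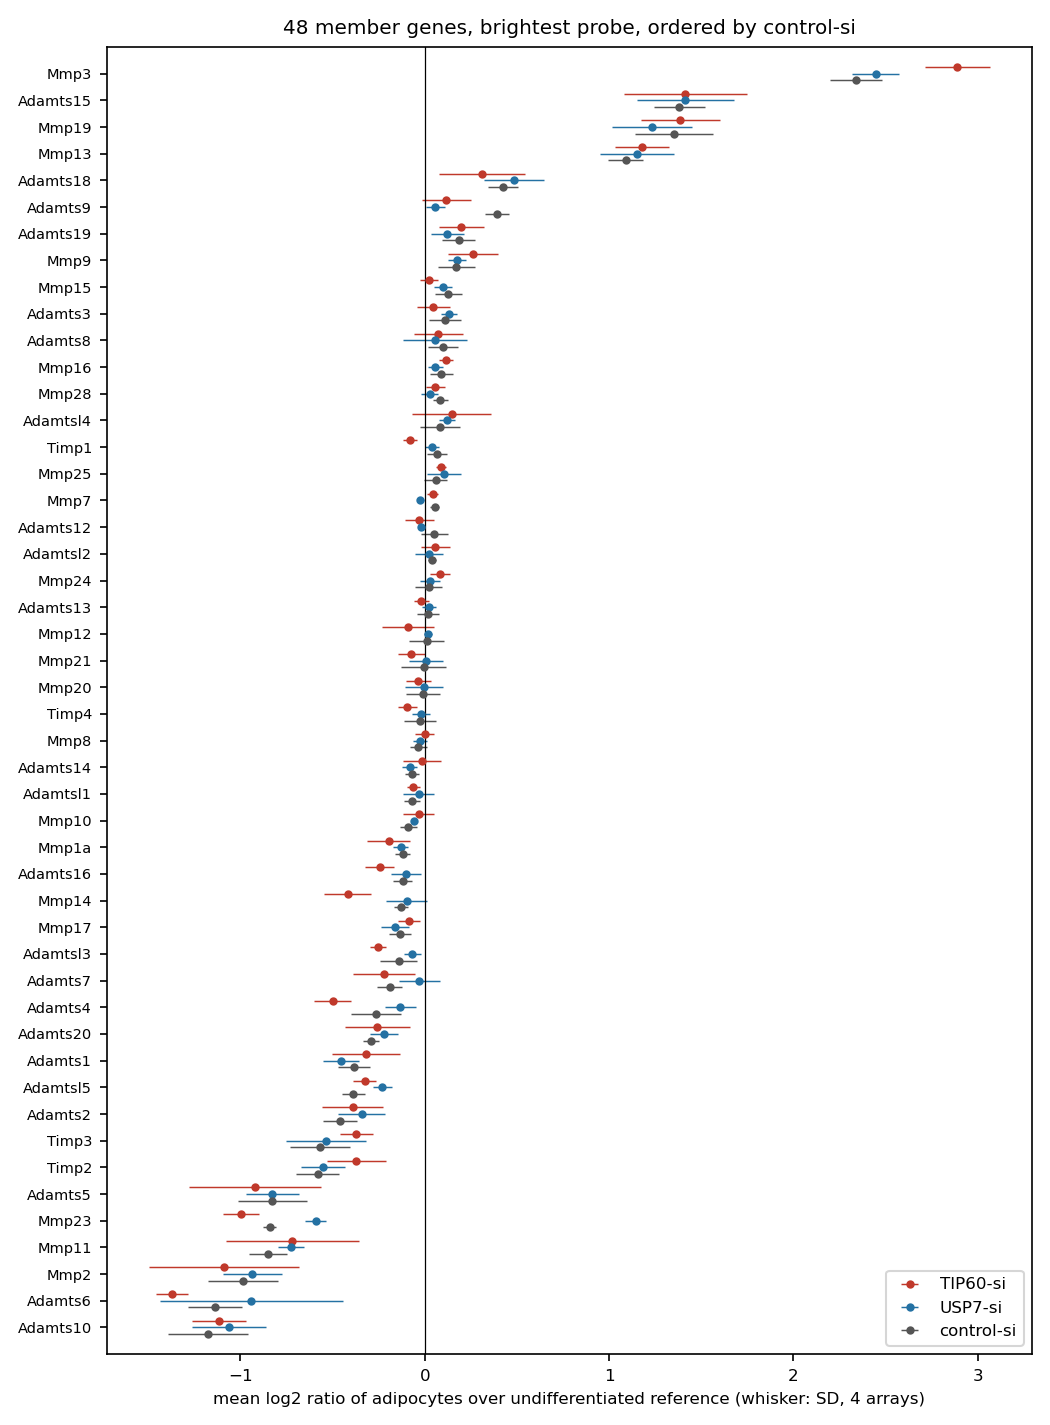
Mean log2 ratio of adipocytes over the undifferentiated reference for the 48 genes (brightest probe), with TIP60-si, USP7-si and control-si as points and SD over 4 arrays as whiskers, ordered by control-si. Mmp3, Adamts15, Mmp19 and Mmp13 lie above 1 in every group, and Adamts10 lies below -1 in every group.

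Mmp3 and Mmp13 belong to a run of 10 Mmp genes on chromosome 9, in the order Mmp13, Mmp12, Mmp1b, Mmp3, Mmp1a, Mmp10, Mmp8, Mmp27, Mmp20 and Mmp7, of which 8 were measured. These genes are close relatives by sequence. The other 6 measured genes lay between -0.12 (Mmp1a) and 0.05 (Mmp7) in control-si, and the genes on either side of Mmp3 in the measured order, Mmp12 and Mmp1a, were at -0.09 and -0.20 in TIP60-si, at 0.02 and -0.13 in USP7-si, and at 0.01 and -0.12 in control-si. Mmp12 was above background on 5 of 12 arrays and Mmp20 on 8, so that their ratios say little about level. Mmp8, Mmp10, Mmp1a and Mmp7 were above background on all 12 arrays but dim, with median net sample signals from 38.6 to 164.2. The high ratio was measured for 2 genes of the run and not for Mmp12, the measured gene between them.

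**Figure D2:**
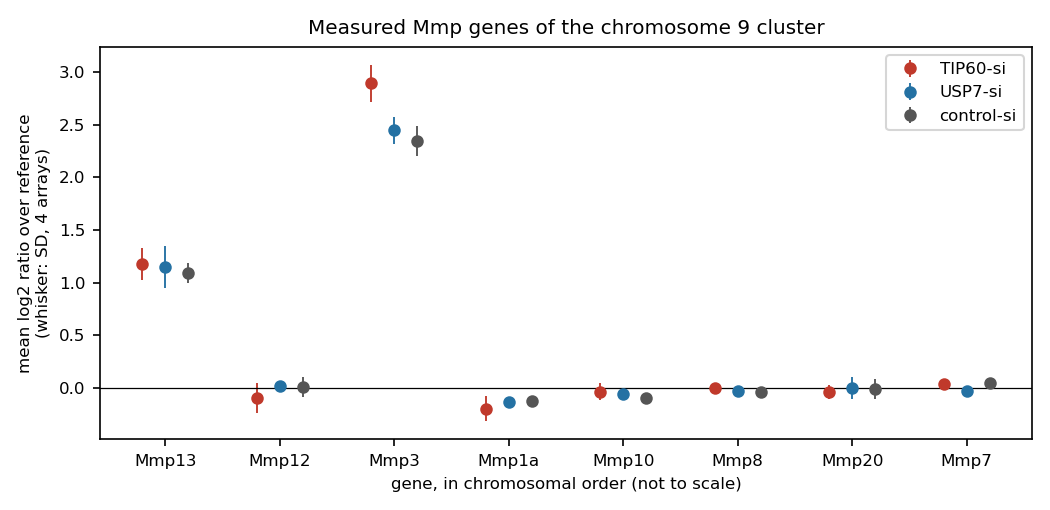
Mean log2 ratio over the reference (SD over 4 arrays as whiskers) of the 8 measured Mmp genes of the chromosome 9 run, in chromosomal order, for TIP60-si, USP7-si and control-si. Mmp3 stands at 2.89 in TIP60-si, 2.45 in USP7-si and 2.34 in control-si, Mmp13 lies above 1 in each group, and the other 6 lie within 0.20 of 0.

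Promoters of this run carry TGANTCA, a loose form of the binding motif of AP-1. AP-1 is the Fos and Jun transcription factor pair long known to act on stromelysin and collagenase genes. The motif has C or G as its middle base, so the counts below are of a looser pattern. The Mmp20 match, TGAATCA, falls outside the motif. The motif was searched as TGANTCA on both strands in windows of 250 bases before to 50 after the start site (RefSeq, GRCm38.p6), and TATAAA was searched alongside; the motifs do not overlap. TGANTCA was found in 7.81% of 32851 promoters and in 7 of the 36 promoters of the genes described here, which belong to 33 genes. All 7 were in the run, 7 of its 8 measured genes, and 0 of 25 genes outside it had a match. The eighth, Mmp8, had none, which says only that these letters are not in its window. TATAAA was found in 13.6% of all promoters and in 11 of the 36. A match describes the letters of the window and shows no binding. The stretches below are shown because they hold TGANTCA in each of the 7 genes, on the plus strand of chromosome 9. TGANTCA and the TATAAA downstream of it are in capitals.
Mmp13 (chr9:7272469-7272538): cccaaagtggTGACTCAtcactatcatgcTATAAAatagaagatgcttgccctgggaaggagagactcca
Mmp12 (chr9:7347320-7347389): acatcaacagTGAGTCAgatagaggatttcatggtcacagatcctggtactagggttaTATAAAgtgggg
Mmp3 (chr9:7445766-7445835): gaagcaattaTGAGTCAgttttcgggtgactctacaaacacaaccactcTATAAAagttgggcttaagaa
Mmp1a (chr9:7464058-7464127): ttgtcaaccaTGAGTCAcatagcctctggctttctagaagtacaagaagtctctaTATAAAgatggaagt
Mmp10 (chr9:7502269-7502338): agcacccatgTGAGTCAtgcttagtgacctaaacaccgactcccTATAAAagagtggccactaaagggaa
Mmp20 (chr9:7628126-7628195): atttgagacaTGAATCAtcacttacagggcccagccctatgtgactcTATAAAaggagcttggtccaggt
Mmp7 (chr9:7692017-7692086): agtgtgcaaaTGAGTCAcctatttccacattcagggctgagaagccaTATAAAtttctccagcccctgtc
The match to TGANTCA began 46 bases before the start site in Mmp3 and 35 in Mmp13, the 2 genes with high ratios. It began between 44 and 95 bases before the start site in the other 5. The distance from the motif to TATAAA was 19 bases in Mmp13 and 39 in Mmp3. Mmp3, Mmp10, Mmp12, Mmp1a and Mmp7 share the letters TGAGTCA. The same letters thus occur in a gene far above the reference and in Mmp10, Mmp1a and Mmp7, whose ratios lay near 0. Mmp10, Mmp1a and Mmp7 were dim, with median net sample signals of 101.6, 113.1 and 164.2, against 2801.6 for Mmp3. Their reference signals were dim too, at 113.5, 134.4 and 168.6, so a ratio near 0 says little about level.

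TIP60 knockdown was compared with control-si to ask which of these genes move when the acetyltransferase is reduced in differentiated cells. Mmp3 rose, and probes of Mmp14, Adamts9 and Timp1 fell. In all, 4 of the 95 probes were called at an adjusted p below 0.05 in limma, against 3.78% of all gene probes (1556 of 41174). Of the 4, 1 was higher, against 1.25% of all gene probes (515), and 3 were lower, against 2.53% (1041). The count among these genes was close to the background. With 1 probe per gene, 3 of 48 genes were called. The median fold change was -0.00142 over the 48 genes and -0.00128 over all gene probes on the log2 scale, and 24 genes lay above 0 and 24 below, where 49.4% and 50.6% of all gene probes did. Groups did not overlap for 11 of the 95 probes, against 11.5% of all gene probes. Median centring in place of loess left 26 probes called in all, 4 higher and 22 lower.

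Mmp3 read 3.07, 3.01, 2.71 and 2.77 in TIP60-si, 2.53, 2.28, 2.55 and 2.43 in USP7-si, and 2.14, 2.41, 2.36 and 2.46 in control-si. All 4 TIP60-si arrays lay above every array of the other groups, and USP7-si and control-si overlapped. Mmp3 rose by 0.55 ± 0.09 (log2, SE; 1.46-fold) in TIP60-si against control-si, with an adjusted p of 0.00582 in limma. Without any 1 array it was still called in all 12 fits. Median centring (0.41, adjusted p = 0.474) and scaling to equal spread (0.20, adjusted p = 0.964) ended the call, over a range of 0.00344 to 0.964 across 23 alternatives. The array had 1 Mmp3 probe.

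**Figure D3:**
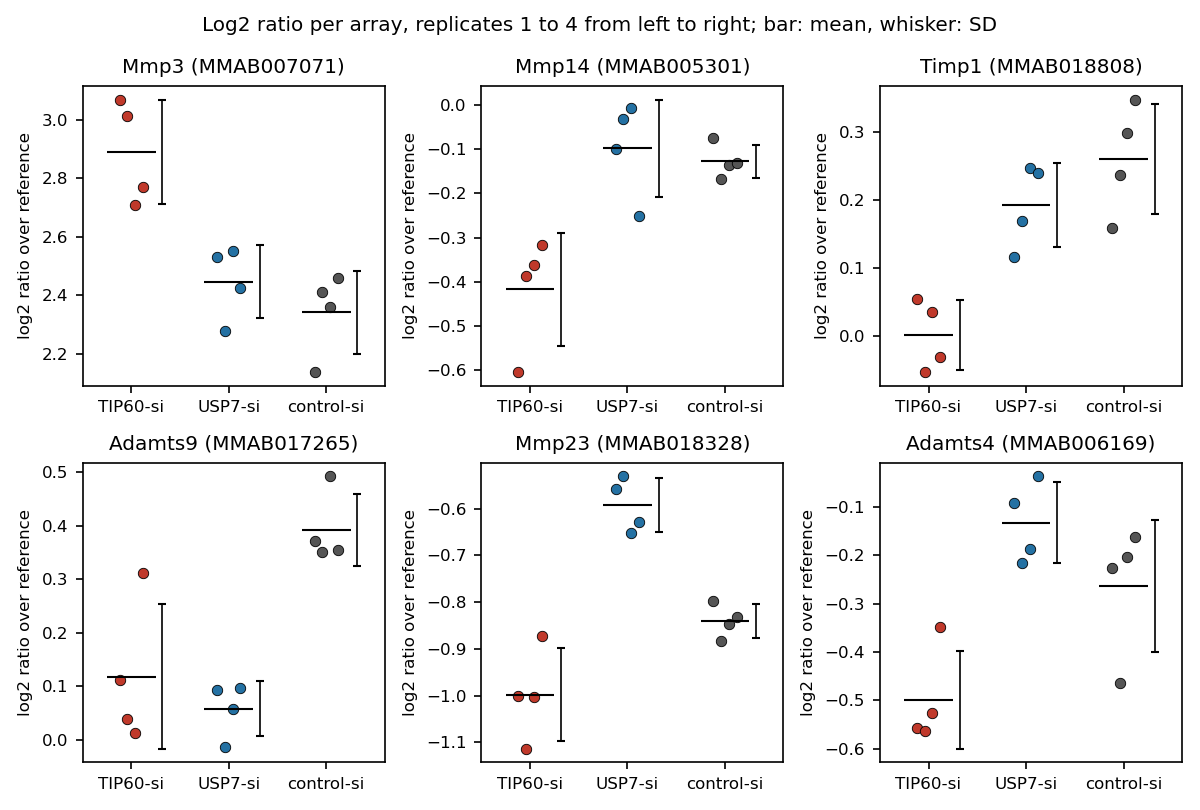
Log2 ratio over the reference on each array for 6 genes, by group (TIP60-si, USP7-si, control-si), with the mean as a bar and the SD as a whisker. The 4 TIP60-si arrays of Mmp3 lie between 2.71 and 3.07, above all others, and those of Mmp14 between -0.60 and -0.32, below all others.

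Mmp14 encodes the membrane-type metalloprotease that cuts fibrillar collagen at the cell surface and activates the Mmp2 precursor. Its brightest probe read -0.60, -0.39, -0.36 and -0.32 in TIP60-si, -0.10, -0.03, -0.01 and -0.25 in USP7-si, and -0.08, -0.17, -0.14 and -0.13 in control-si. Every TIP60-si array was below every array of the other groups. That probe fell by 0.29 on the log2 scale (SE 0.07, adjusted p = 0.0314 in limma) in TIP60-si, to 81.8% of control-si. The other Mmp14 probe, dimmer but also well above background on all 12 arrays, differed by -0.02 (SE 0.12, adjusted p = 0.958), and the mean of both probes was not called (-0.16, adjusted p = 0.319). The call was lost without control-si replicate 1, 2, 3 or 4 (adjusted p = 0.0967, 0.0667, 0.0505 and 0.0831) and without TIP60-si replicate 1, 2 or 3 (0.0738, 0.0561 and 0.0539), within a range of 0.0113 to 0.433 over 23 alternatives. It was also lost with no dye term (0.105), plain background subtraction (0.0929), scaling to equal spread (0.433) and median centring, which moved the value to -0.53 (adjusted p = 0.277). The Mmp14 result thus rests on 1 of 2 probes.

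Adamts9, a proteoglycanase of the cell surface and surrounding matrix, read 0.11, 0.04, 0.01 and 0.31 in TIP60-si, 0.09, -0.01, 0.06 and 0.10 in USP7-si, and 0.37, 0.35, 0.49 and 0.35 in control-si. Both knockdowns lay below control-si with no overlap. In TIP60-si it fell by 0.27 on the log2 scale (SE 0.06, adjusted p = 0.0311 in limma), to 82.7% of control-si. Its 3 dimmer probes differed by -0.01 to 0.02, and the mean of the 4 was not called (-0.06, adjusted p = 0.267). The call was lost without control-si replicate 1, 2, 3 or 4 (adjusted p = 0.0705, 0.064, 0.0703 and 0.0679) and without TIP60-si replicate 1, 2 or 3 (0.0731, 0.0844 and 0.0982), within a range of 0.00381 to 0.649 over 23 alternatives. It was also lost with no dye term (0.232), a fit of only the groups compared (0.0662), plain background subtraction (0.0986), scaling to equal spread (0.244) and median centring (0.649). Like Mmp14, Adamts9 changed on 1 probe.

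The inhibitors did not move as a group. Timp1, a secreted inhibitor that acts poorly on membrane-type enzymes, was measured by 3 probes, all lower in TIP60-si. Probe MMAB018808 read 0.05, -0.05, 0.03 and -0.03 in TIP60-si, 0.12, 0.17, 0.25 and 0.24 in USP7-si, and 0.16, 0.24, 0.30 and 0.35 in control-si. It fell by 0.26 on the log2 scale (SE 0.05, adjusted p = 0.0154 in limma) in TIP60-si, to 83.6% of control-si, and the groups did not overlap. The brightest probe read -0.13, -0.05, -0.04 and -0.10 in TIP60-si, -0.02, 0.05, 0.05 and 0.07 in USP7-si, and 0.04, 0.02, 0.15 and 0.06 in control-si. Its difference between TIP60-si and control-si was -0.15 (adjusted p = 0.0956), also with no overlap, and the remaining probe differed by -0.17 (adjusted p = 0.203). The mean of the 3 probes was called, at -0.19 (adjusted p = 0.0281 in limma). For MMAB018808 the call was lost without control-si replicate 4 (-0.23, adjusted p = 0.0624), within a range of 0.013 to 0.576 over 23 alternatives. Plain background subtraction (0.0688), scaling to equal spread (0.258) and median centring (0.576) also ended it.

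Timp2, which both inhibits metalloproteases and takes part in the activation of Mmp2 by Mmp14, read -0.55, -0.44, -0.30 and -0.19 in TIP60-si, -0.65, -0.45, -0.44 and -0.66 in USP7-si, and -0.44, -0.71, -0.62 and -0.55 in control-si. The groups overlapped and the difference between TIP60-si and control-si was 0.21 (SE 0.08, adjusted p = 0.21). Timp3, the matrix-bound inhibitor that also blocks Adamts enzymes, read -0.24, -0.40, -0.42 and -0.42 in TIP60-si, -0.48, -0.78, -0.62 and -0.26 in USP7-si, and -0.69, -0.71, -0.49 and -0.38 in control-si. Its difference was 0.20 (SE 0.10, adjusted p = 0.345). Timp4, an inhibitor known from fat and heart, read -0.13, -0.09, -0.02 and -0.13 in TIP60-si, -0.06, -0.06, -0.01 and 0.05 in USP7-si, and -0.05, 0.08, -0.01 and -0.13 in control-si. It differed by -0.07 (SE 0.05, adjusted p = 0.587), and the groups of Timp3 and Timp4 overlapped. Values for Timp2 and Timp3 were thus on the other side of 0 from those for Timp1, without passing the test.

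No other group had a called gene in this comparison. The collagenases Mmp1a, Mmp8 and Mmp13 differed by -0.08, 0.03 and 0.09. The gelatinases Mmp2 and Mmp9 differed by -0.10 and 0.09, with adjusted p-values of 0.819 and 0.585. Of the stromelysins, Mmp10 and Mmp11 differed by 0.06 and 0.13 beside the 0.55 of Mmp3. The procollagen N-proteinases Adamts2, Adamts3 and Adamts14, which trim the amino end of fibrillar procollagens, differed by 0.07, -0.06 and 0.05. Within 0.1 of 0 lay 32 of the 48 genes.

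**Figure D4:**
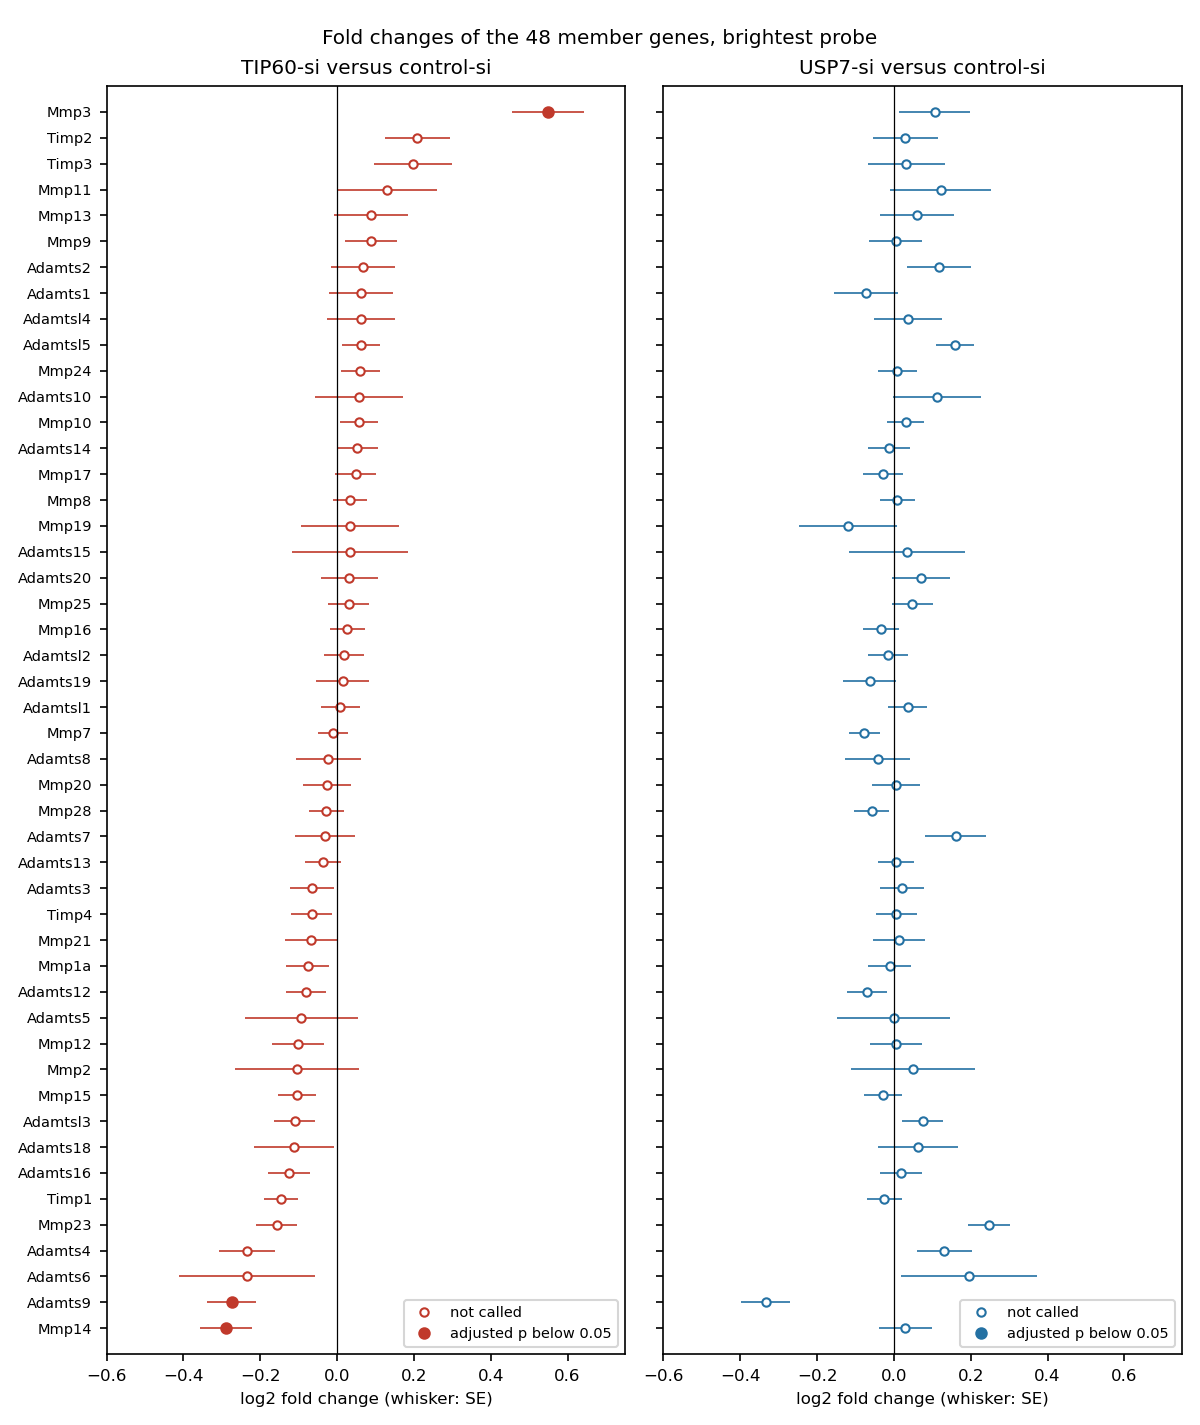
Log2 fold change (SE as whiskers) of the 48 genes, brightest probe, for TIP60-si versus control-si (left) and USP7-si versus control-si (right), in the order of the left panel; filled points have an adjusted p below 0.05. Mmp3 at 0.55, Adamts9 at -0.27 and Mmp14 at -0.29 are filled on the left, and no point is filled on the right.

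USP7 knockdown against control-si asked the same question for the deubiquitinase. None of the 95 probes was called by limma, against 0.085% of all gene probes (35 of 41174, 13 higher and 22 lower). At an unadjusted p below 0.05 there were 5 of 95 probes, against 6.27% of all gene probes. The median fold change of the 48 genes was 0.02 on the log2 scale, and 0.00 over all gene probes. The quartiles were -0.02 and 0.06 over the 48 genes, and -0.04 and 0.04 over all gene probes. Of the 48 genes, 32 lay above 0 and 16 below, without a test. Groups did not overlap for 3 of the 95 probes, against 4.68% of all gene probes. Median centring left 3 probes called in all (2 higher, 1 lower) and scaling to equal spread left 4 (3 higher, 1 lower).

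Adamts9 was furthest from control-si, at -0.33 (SE 0.06, adjusted p = 0.0982), with all 4 USP7-si arrays below all 4 control-si arrays. It was called with array quality weights (-0.31, adjusted p = 0.0245), in a fit of only the groups compared (adjusted p = 0.0369) and without TIP60-si replicate 4 (adjusted p = 0.0148), within a range of 0.0148 to 1 over 23 alternatives. The mean of its 4 probes differed by -0.04. Mmp23, an unusual membrane-anchored enzyme released by furin-type cleavage, lay at 0.25 above control-si (SE 0.05, adjusted p = 0.186), also with no overlap. Mmp7, or matrilysin, was the remaining probe without overlap, at -0.08 (adjusted p = 0.84). After Adamts9 and Mmp23, the smallest p-values belonged to Adamtsl5 at 0.16 (adjusted p = 0.497) and Adamts7 at 0.16 (adjusted p = 0.815).

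Adamts7, which cuts cartilage oligomeric matrix protein, read -0.42, -0.22, -0.24 and -0.01 in TIP60-si, -0.00, -0.19, 0.04 and 0.04 in USP7-si, and -0.12, -0.26, -0.14 and -0.24 in control-si. The brightest Adamtsl5 probe read -0.39, -0.36, -0.31 and -0.24 in TIP60-si, -0.19, -0.23, -0.30 and -0.20 in USP7-si, and -0.41, -0.41, -0.30 and -0.43 in control-si. In both genes the USP7-si values were the highest on average, and the groups overlapped. Mmp3 differed by 0.11 (SE 0.09, adjusted p = 0.943) and Mmp14 by 0.03 (SE 0.07, adjusted p = 0.986) between USP7-si and control-si.

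The knockdowns were also set against each other. TIP60-si differed from USP7-si on 8 of 95 probes, against 7.38% of all gene probes (3037 of 41174). Of the 8, 3 were higher, against 2.97% of all gene probes (1224), and 5 were lower, against 4.4% (1813). With 1 probe per gene, 4 of 48 genes were called. The members' share is again near the background, and groups did not overlap for 15 of the 95, against 14.8% of all gene probes. Scaling to equal spread left 310 probes called in all, 59 higher and 251 lower, and 0 of the 95, as did median centring, with 41 in all. Leaving out USP7-si replicate 4, the array with the narrow spread, left 1895 probes called in all.

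Mmp23 gave the smallest p among the genes described here. It read -1.002, -1.11, -1.004 and -0.87 in TIP60-si, -0.56, -0.53, -0.65 and -0.63 in USP7-si, and -0.80, -0.88, -0.85 and -0.83 in control-si. Control-si lay between the knockdowns on average, and TIP60-si was below USP7-si without overlap. The difference between TIP60-si and USP7-si was -0.41 (SE 0.05, adjusted p = 0.00098 in limma), while neither knockdown passed the test against control-si (-0.16 and 0.25). Adamts4, an aggrecanase, had the same order: it read -0.56, -0.56, -0.52 and -0.35 in TIP60-si, -0.09, -0.22, -0.19 and -0.04 in USP7-si, and -0.23, -0.46, -0.20 and -0.16 in control-si. Its difference was -0.37 (SE 0.07, adjusted p = 0.00837 in limma), with values against control-si of -0.23 (adjusted p = 0.0941) in TIP60-si and 0.13 (adjusted p = 0.861) in USP7-si. Both calls held in each of the 12 fits that left out 1 array. Scaling to equal spread ended both, with Mmp23 at -0.06 (adjusted p = 0.927) and Adamts4 at -0.27 (adjusted p = 0.082), as did median centring (-0.54, adjusted p = 0.26, and -0.40, adjusted p = 0.313).

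Mmp3 was higher in TIP60-si than in USP7-si by 0.44 (SE 0.09, adjusted p = 0.0116 in limma), or 1.36-fold. Scaling to equal spread turned this difference to -0.70 (adjusted p = 0.591), within a range of 0.00572 to 0.591 over 23 alternatives; that setting widens all ratios of USP7-si replicate 4. Without that replicate, Mmp3 differed by 0.44 (adjusted p = 0.0305). Plain background subtraction (0.41, adjusted p = 0.0823) and median centring (0.28, adjusted p = 0.561) also ended the call. The brightest Mmp14 probe was lower by 0.32 (SE 0.07, adjusted p = 0.0124 in limma), and the other Mmp14 probe differed by -0.02. Its call was lost without USP7-si replicate 3 (-0.29, adjusted p = 0.0518), within a range of 0.00609 to 0.371 over 23 alternatives. It was also lost with the mean of both probes (-0.17, adjusted p = 0.235), median centring (-0.59, adjusted p = 0.161) and scaling to equal spread (-0.20, adjusted p = 0.371). Timp1 probe MMAB018808 differed by -0.19 (SE 0.05, adjusted p = 0.043 in limma). That call was lost in 17 of 23 alternatives and in 9 of the 12 fits that left out 1 array, with adjusted p-values of 0.14 at most in those fits (without USP7-si replicate 3), and 0.126 without USP7-si replicate 4. The other fits that ended it left out control-si replicate 2 (0.054), TIP60-si replicate 1, 2, 3 or 4 (0.0551, 0.105, 0.0768 and 0.0886) and USP7-si replicate 1 or 2 (0.0523 and 0.057).

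The other calls between the knockdowns came from dimmer probes of genes with several. Adamts12, an enzyme related to Adamts7, read 0.32, 0.30, 0.45 and 0.29 on probe MMAB024484 in TIP60-si, 0.07, 0.13, 0.10 and 0.06 in USP7-si, and 0.09, 0.23, 0.18 and 0.19 in control-si. TIP60-si was above both other groups, and the difference from USP7-si was 0.25 (SE 0.05, adjusted p = 0.00761 in limma). The mean of its 3 probes differed by 0.11 (adjusted p = 0.0465 in limma), and the brightest probe by -0.01. Median centring (adjusted p = 0.339) and scaling to equal spread (0.108) ended the call. Adamts2 read 0.18, 0.14, 0.21 and 0.14 on probe MMAB022985 in TIP60-si, -0.06, -0.07, -0.11 and 0.01 in USP7-si, and -0.06, 0.08, 0.19 and 0.05 in control-si. The difference between the knockdowns was 0.22 (SE 0.05, adjusted p = 0.0227 in limma), and the 3 other Adamts2 probes differed by -0.05 to 0.07. That call was lost without TIP60-si replicate 1 or 3 (adjusted p = 0.0558 and 0.0751) and without USP7-si replicate 1 or 3 (0.066 and 0.0843), within a range of 0.0115 to 0.801 over 23 alternatives. It was also lost with the mean of the 4 probes (0.485), no dye term (0.0563), plain background subtraction (0.0575), scaling to equal spread (0.16) and median centring (0.801).

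Adamtsl5, an ADAMTS-like protein without a protease domain, read -0.64, -0.67, -0.64 and -0.56 on probe MMAB021974 in TIP60-si, -0.31, -0.42, -0.43 and -0.26 in USP7-si, and -0.40, -0.61, -0.51 and -0.41 in control-si. The knockdowns did not overlap, and TIP60-si was lower than USP7-si by 0.27 (SE 0.06, adjusted p = 0.0126 in limma). The brightest Adamtsl5 probe differed by -0.10 (adjusted p = 0.304). The call was lost without USP7-si replicate 1 (-0.25, adjusted p = 0.0503), within a range of 0.00387 to 0.622 over 23 alternatives. It was also lost in the authors' deposited value table (0.0622), with the mean of the 3 probes (-0.12, adjusted p = 0.0717), no dye term (0.0592), plain background subtraction (0.078), median centring (0.407) and scaling to equal spread (-0.08, adjusted p = 0.622). Of the 9 genes with a called probe in either TIP60-si comparison, Mmp3, Mmp23 and Adamts4 had 1 probe, and no gene with several had more than 1 probe called in the same comparison.

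**Figure D5:**
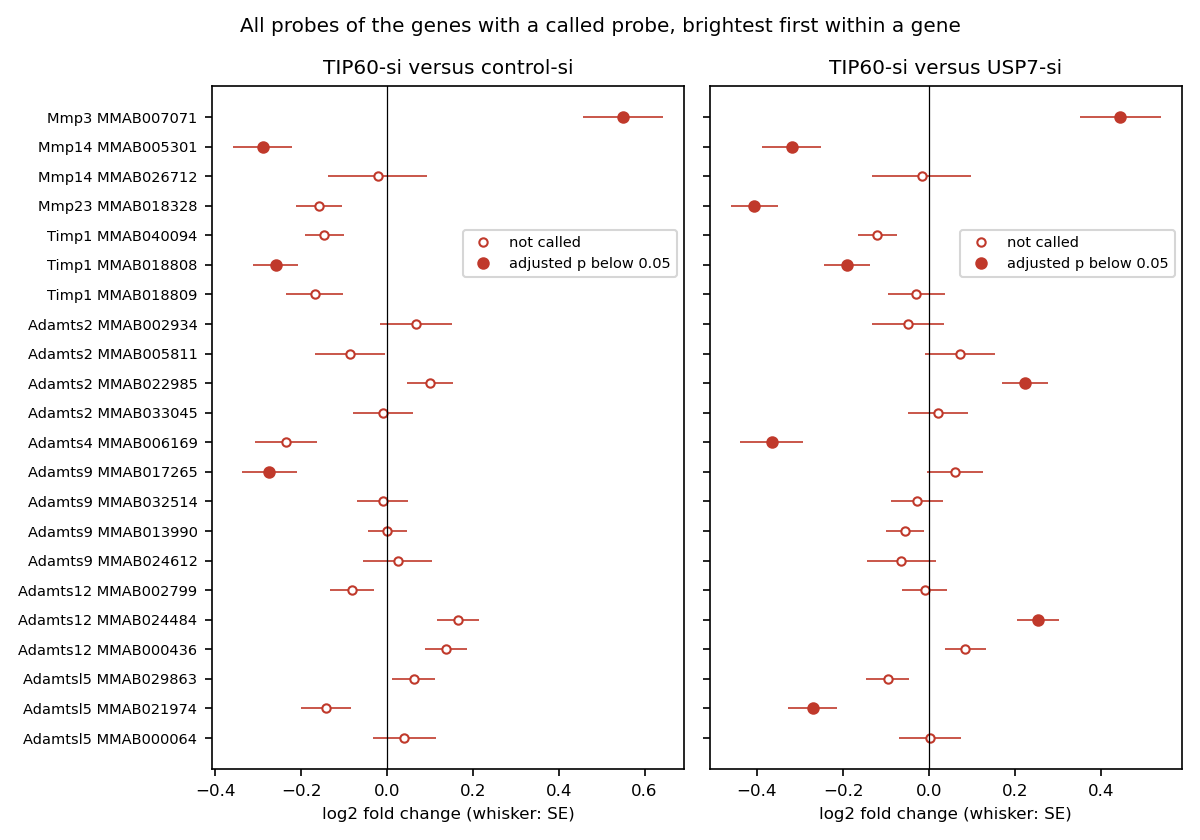
Log2 fold change (SE as whiskers) of every probe of the 9 genes with a called probe, for TIP60-si versus control-si (left) and TIP60-si versus USP7-si (right); filled points have an adjusted p below 0.05. The 3 Timp1 probes lie on 1 side of 0 on the left, while the second Mmp14 probe and 3 of 4 Adamts9 probes lie near 0.

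Genes that work with these proteases were read from lists of their activators and regulators, other matrix proteases, substrates and inducing factors, with 1 brightest probe per gene. The lists were chosen with earlier results of these data known, so their counts beside the background are descriptive. In TIP60-si against control-si, where 1.25% of all gene probes were called higher and 2.53% lower, 2 of 17 activators and cell-surface regulators rose: Tfpi2, a matrix-bound inhibitor of plasmin and other serine proteases, by 0.40 (SE 0.08, adjusted p = 0.0154 in limma), and the integrin subunit Itgb3 by 0.21 (SE 0.05, adjusted p = 0.0301 in limma). Of 16 other matrix proteases, 2 rose: the procollagen C-proteinase Bmp1 by 0.41 (SE 0.08, adjusted p = 0.0145 in limma) and its relative Tll1 by 0.35 (SE 0.08, adjusted p = 0.0235 in limma). Only Nid1, a nidogen that links basement membrane networks, rose among 25 substrates, by 0.40 (SE 0.07, adjusted p = 0.00513 in limma). The medians of these lists were 0.03, 0.07 and 0.09, against -0.00128 over all gene probes. No member of the 3 lists fell by its brightest probe. Over all their probes, 3 of 43, 2 of 24 and 4 of 59 were called in either direction, against 3.78% of all gene probes. In USP7-si against control-si, where 0.085% of all gene probes were called, none of them was, with medians of 0.01, 0.02 and 0.01.

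Among 14 inducing factors, 2 rose and 1 fell by brightest probe in TIP60-si, against the same 1.25% and 2.53% of all gene probes. Over all their probes, 4 of 24 were called in either direction, against 3.78% of all gene probes. Because the list was chosen with earlier results of these data known, that count is no test of it. The AP-1 subunits Fos and Fosl1 rose in TIP60-si against control-si, by 0.59 (SE 0.08, adjusted p = 0.00183 in limma) and 0.66 (SE 0.12, adjusted p = 0.00719 in limma). The other AP-1 subunits on the list were not called: Fosb (-0.10), Fosl2 (0.01), Jun (0.09), Junb (0.15) and Jund (-0.10). Runx2, which acts on Mmp13 in bone cells, fell by 0.33 (SE 0.08, adjusted p = 0.0357 in limma). In USP7-si against control-si, 1 of the 14 was called, against 0.085% of all gene probes: Fos rose by 0.88 (SE 0.08, adjusted p = 0.000421 in limma) while Fosl1 differed by -0.20 (adjusted p = 0.892). Mmp3 was measured beside a higher Fosl1 in TIP60-si, and beside a higher Fos in both knockdowns. Their part in the Mmp3 result was not tested. Fosl1 stood at 2.46 ± 0.12 in TIP60-si, 1.60 ± 0.24 in USP7-si and 1.79 ± 0.21 in control-si (SD, n = 4 each).

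Between the knockdowns, 2.97% of all gene probes were called higher in TIP60-si and 4.4% lower. The counts of list genes again use 1 brightest probe per gene. Over all probes, 8 of 59 for substrates and 5 of 43 for activators and regulators were called in either direction. For other proteases this was 3 of 24 and for inducing factors 4 of 24, against 7.38% of all gene probes. Of 25 substrates, 2 were higher and 3 lower: Bgn (biglycan, 0.79, adjusted p = 0.00745 in limma) and Nid1 (0.35, adjusted p = 0.00721) were higher in TIP60-si than in USP7-si, and Col1a1 (-0.48, adjusted p = 0.0336), Col1a2 (-0.36, adjusted p = 0.0453) and Sparc (-0.35, adjusted p = 0.0247) were lower. Col1a1 and Col1a2 encode the chains of fibrillar collagen that Mmp13 and Mmp14 cut. Of 17 activators and regulators 3 were higher, and of 16 other proteases 2 were, with none lower in either list. Tfpi2 (0.51, adjusted p = 0.00238), Bsg (0.54, adjusted p = 0.0459), which encodes a cell-surface inducer of Mmp genes, Itgb3 (0.17, adjusted p = 0.0462), Bmp1 (0.30, adjusted p = 0.042) and Tll1 (0.29, adjusted p = 0.0347) were higher. Of 14 inducing factors, 1 was higher and 2 lower. Fosl1 was higher by 0.86 (adjusted p = 0.00112), while Fos (-0.29, adjusted p = 0.0484) and Runx2 (-0.52, adjusted p = 0.00197) were lower.

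Markers of other cells were read because metalloproteases are also made by fibroblasts, macrophages and vessels. Of 7 fibroblast and preadipocyte markers, Thy1 rose in TIP60-si against control-si (0.26, adjusted p = 0.0228 in limma), where 1.25% of all gene probes were called higher. Pdgfra (-0.22), Postn (-0.17) and Ly6a (-0.01) were lower there without a call, and the list's median fold change was 0.07. Over the reference, the list's median ran from -0.83 to -0.44 on TIP60-si arrays. It ran from -0.89 to -0.60 on USP7-si arrays and from -0.87 to -0.65 on control-si arrays. None of 7 macrophage markers and none of 5 muscle markers was called in any comparison at an adjusted p, with 1 macrophage marker at an unadjusted p below 0.05 in TIP60-si against control-si and 2 in USP7-si against control-si. Of 5 endothelial markers, Tek rose against control-si in TIP60-si (0.27, adjusted p = 0.0063 in limma) and in USP7-si (0.35, adjusted p = 0.0104 in limma). The shares over all gene probes were 1.25% higher in TIP60-si and 0.085% in either direction in USP7-si. Both comparisons used the same control-si arrays. Pecam1, Cdh5, Kdr and Emcn were not called, at -0.06, 0.02, 0.06 and 0.15 in TIP60-si and 0.02, 0.02, 0.05 and -0.03 in USP7-si. In TIP60-si against USP7-si, the comparison in which Mmp3 was also higher, 2 of 7 fibroblast markers were higher, Thy1 (0.25, adjusted p = 0.0195) and Col6a3 (0.38, adjusted p = 0.0393), as was 1 of 5 endothelial markers, Emcn (0.18, adjusted p = 0.0427), against 2.97% of all gene probes. The Col6a3 groups overlapped there, and its median net sample signal of 63898.3 lay near the saturation level of 65000. In that comparison the fibroblast markers Pdgfra (-0.19) and Postn (-0.10) were lower without a call. So were the endothelial markers Pecam1 (-0.08) and Tek (-0.07). The median fold change there was 0.06 over the fibroblast list and 0.004 over the endothelial list. The samples are cultures of 1 cell line, so a called marker gene does not by itself show another cell type. In bulk samples fewer cells of a type and less RNA per cell cannot be told apart. The part of these markers in the changes above was not tested.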

How the data were processed

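RNA of 12 samples in 3 groups of 4 was measured on 2-colour arrays against a common reference, with the sample in Cy3 on 2 arrays and in Cy5 on 2 in each group. The deposited scanner files hold the intensity of each spot and its local background on a linear scale, per the file headers. The deposited normalized files hold the authors' normalized intensity in both dyes. The deposited value table holds log2 ratios, which match log2 of sample over reference, computed from the normalized files, within 5e-06, so scale and direction come from the values; its column medians ran from -0.00915 to 0.00526. Software versions are not given in the sources used here.

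Background was corrected by normexp (offset 50), and loess was applied within arrays, with control spots at weight 0 (limma 3.58.1, R 4.3.3), and 1 linear model with group and dye was fitted to 12 arrays. P-values are two-sided and were adjusted by Benjamini-Hochberg over 41174 probes, with 0.05 as the threshold. "Above background" means over 2 background SDs. No member probe was saturated, and probes of the lists were not checked for this. Symbols were brought up to date with a mouse RefSeq table: 30365 probes were current, 3726 updated (0 of them members) and 95 unmatched. The fit was tested on simulated data. Array values were given for members called in any comparison, the highest and lowest in control-si, the Timp genes, Mmp3, Mmp14 and the smallest p in each knockdown; list genes were named when called. Alternatives covered background correction, normalization, dye, array weights, dim probes, other probes, the value table, the groups fitted, the replicate block and leaving out each array. The members and lists were chosen with earlier results of these data known.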

Additional observations from a re-analysis of the deposited data

Results flagged for a closer look

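In 3 of 69 groups of 4 arrays looked at, 1 array lay far from the other 3; chance gives about 1 in 20. Adamts18 in USP7-si read 0.24 on replicate 2, and the other 3 arrays were higher. Adamts9 in control-si read 0.49 on replicate 3, and the other 3 were lower. Timp3 in TIP60-si read -0.24 on replicate 1, and the other 3 were lower. Without control-si replicate 3, Adamts9 differed between TIP60-si and control-si by -0.24 (adjusted p = 0.0703 in limma).

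For 8 of the 95 probes the effect of TIP60-si differed from that of USP7-si, against 7.38% of all gene probes. The test was of the difference itself. It is the comparison between the knockdowns given above, and the count is near the background. On the log2 scale, as TIP60-si minus USP7-si, the values were Adamts12 (0.25), Adamts2 (0.22), Adamts4 (-0.37), Adamtsl5 (-0.27), Mmp14 (-0.32), Mmp23 (-0.41), Mmp3 (0.44) and Timp1 (-0.19).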

How the results depend on the processing

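Counts of called probes fell most with median centring in place of loess: to 26 for TIP60-si versus control-si, 3 for USP7-si versus control-si and 41 for TIP60-si versus USP7-si, with 0, 0 and 0 of the members. Scaling to equal spread gave 97, 4 and 310, with 0 members in each, and turned Mmp3 in TIP60-si versus USP7-si to -0.70. Without the dye term the counts were 602, 18 and 1373, with 2, 0 and 5 members. Plain background subtraction gave 640, 12 and 1084, with 1, 0 and 4 members. Array quality weights raised USP7-si versus control-si to 77 probes and 1 member, and a fit of only the groups compared also called 1 member there. Leaving out 1 array gave 736 to 1797, 14 to 49 and 1500 to 3353 probes, and 1 to 6, 0 to 1 and 5 to 10 members. Beyond 2-fold of the reference in control-si lay 7 of 95 probes, 4 above and 3 below. With the mean of all probes of a gene it was 4 of 48 genes, 4 above and 0 below, and leaving out 1 array gave 6 to 8 probes. With the replicate block the counts were 1715, 37 and 3353 probes, with 6, 0 and 10 members. The block rests only on shared numbers: residuals of same-numbered arrays correlated from -0.29 to 0.31 over 12 pairs, 3 of them over 0.1, and 1 of 12 arrays correlated best with its own number. Among values of single genes, 594 kept direction and side of the threshold or moved within the replicate SD. Another 76 lost the call, 3 gained it, 9 moved and 1 reversed. These values include 361 control-si ratios over the reference, 352 of them within the SD. They also include Adamts9 and Mmp23 in USP7-si versus control-si, which were not called. The 594 thus does not measure the stability of the calls. Called probes held in 6 (Timp1, TIP60-si versus USP7-si) to 21 of 23 alternatives (such as Mmp3, TIP60-si versus control-si). The cause of these shifts was not tested. No slide or scan block was run. Probes near background, as for Mmp12 and Mmp20, limit what their ratios show.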
